A study of Mus musculus with 18 samples.

Results

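Genes that move calcium in and out of heart cells and join those cells electrically were examined in mouse embryos of embryonic day 9.5, of which the middle of 3 parts was used. The list held 9 genes, chosen by name: Atp2a2, Pln, Ryr2, Casq2, Slc8a1, Calr, Gja1, Gjc1 and Cacnb3. Of these, 7 had a probe set annotated to their symbol, out of 6137 named genes, and 10 probe sets carried them. No probe set in the annotation used here was assigned to Pln or Cacnb3, and both are left without values. The embryos were homozygous mutant (null in the labels), heterozygous (het) or wild type (wt) for Csx/Nkx2.5, a homeodomain protein that controls genes of the developing heart. Homozygous mutants, heterozygotes and wild type were each hybridised 3 times to both of 2 array types, called a and b as in the labels, for 18 arrays in all. The labels name neither the mutant allele nor the strain, and do not say whether an array held a single embryo or a pool, so the p-values rest on a spread between samples that could be technical. No probe set was annotated to the mutated gene, so the genotypes are those of the labels.

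In heart muscle, calcium enters the cell through voltage-gated channels and triggers release of more calcium from the sarcoplasmic reticulum through the ryanodine receptor. A pump returns calcium to the store and a sodium-calcium exchanger moves it out of the cell, so that the muscle relaxes. Gap junctions made of connexins pass the electrical impulse from cell to cell. In the mouse embryo the heart already beats at this stage, and calreticulin, a calcium-binding chaperone of the endoplasmic reticulum, has been described in mouse as a gene under the influence of Nkx2-5 and as needed for normal heart development.

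The tissue was a piece of the whole embryo rather than isolated heart, and the marker genes of heart were measured beside those of other tissues. All 10 annotated sarcomere genes of an 18-gene list were bright enough to test, as were 8 neural, 6 erythroid, 5 endothelial and 4 simple epithelial markers. In such bulk samples, fewer cells of a type and less RNA per cell cannot be told apart. Homozygous mutant arrays 8a (type a) and 9b (type b), which the labels number differently, stood apart from the rest. Their actin 3' to 5' signal ratio, a measure of RNA integrity, reached 2.5 (8a) and 2.28 (9b), while the other arrays of type a had 0.967 to 1.41 and those of type b 0.849 to 1.4. The BioB hybridisation control was also brighter there, with an intensity of 3950 on 8a and 4531 on 9b, while the other arrays had 965.6 to 1539 (type a) and 1498 to 2320 (type b). The fold changes of the listed genes in homozygous mutants over wild type are therefore also given without them. Homozygous mutant 2, heterozygous 4 and wild type 1 had far more Afp, made by yolk sac endoderm and liver bud, than the other replicates.

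None of the tested calcium handling and gap junction genes passed the test in any comparison of genotypes, and each 95% interval included 0. Between homozygous mutants and wild type the widest differences were those of Ryr2, with more signal in the mutants, and of Gjc1 and Calr, with less. Testing required a signal above a floor, 375.1 on type a and 523.1 on type b, on 3 or more of the 9 arrays of a type. This held for 7 probe sets of 6 genes: Atp2a2, Ryr2, Calr, Gja1, Gjc1 and 2 of the 3 for Slc8a1. By limma's moderated test, adjusted over all 6935 tested probe sets, 0 of the 7 passed 0.05 between homozygous mutants and wild type, where 0.692% of all tested probe sets did (0.505% higher and 0.187% lower). The count was also 0 of 7 between homozygous mutants and heterozygotes, with a background of 1.15% (0.735% higher and 0.418% lower), and 0 of 7 between heterozygotes and wild type, with a background of 0%. At an unadjusted p under 0.05 the count was 0 of 7 in each comparison as well, against 11.2%, 15.7% and 1.7% of all tested probe sets in the same order. The 3 comparisons share their arrays and are not independent.

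The median log2 fold change of the 7 probe sets was 0.19 between homozygous mutants and wild type, against -0.02 over all tested probe sets. It was 0.13 between homozygous mutants and heterozygotes, against -0.07, and 0.02 between heterozygotes and wild type, against 0.03. Homozygous mutants and wild type had non-overlapping values at 1 of the 7 probe sets, against 15.4% of all tested probe sets (7.24% higher and 8.19% lower). Homozygous mutants and heterozygotes did so at 2 of 7, against 22.6% (9.99% higher and 12.6% lower). Heterozygotes and wild type did so at 1 of 7, against 6.37% (3.73% higher and 2.64% lower). All of these member probe sets, those of Gjc1 and Calr, were lower in the first-named genotype.

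**Figure D1:**
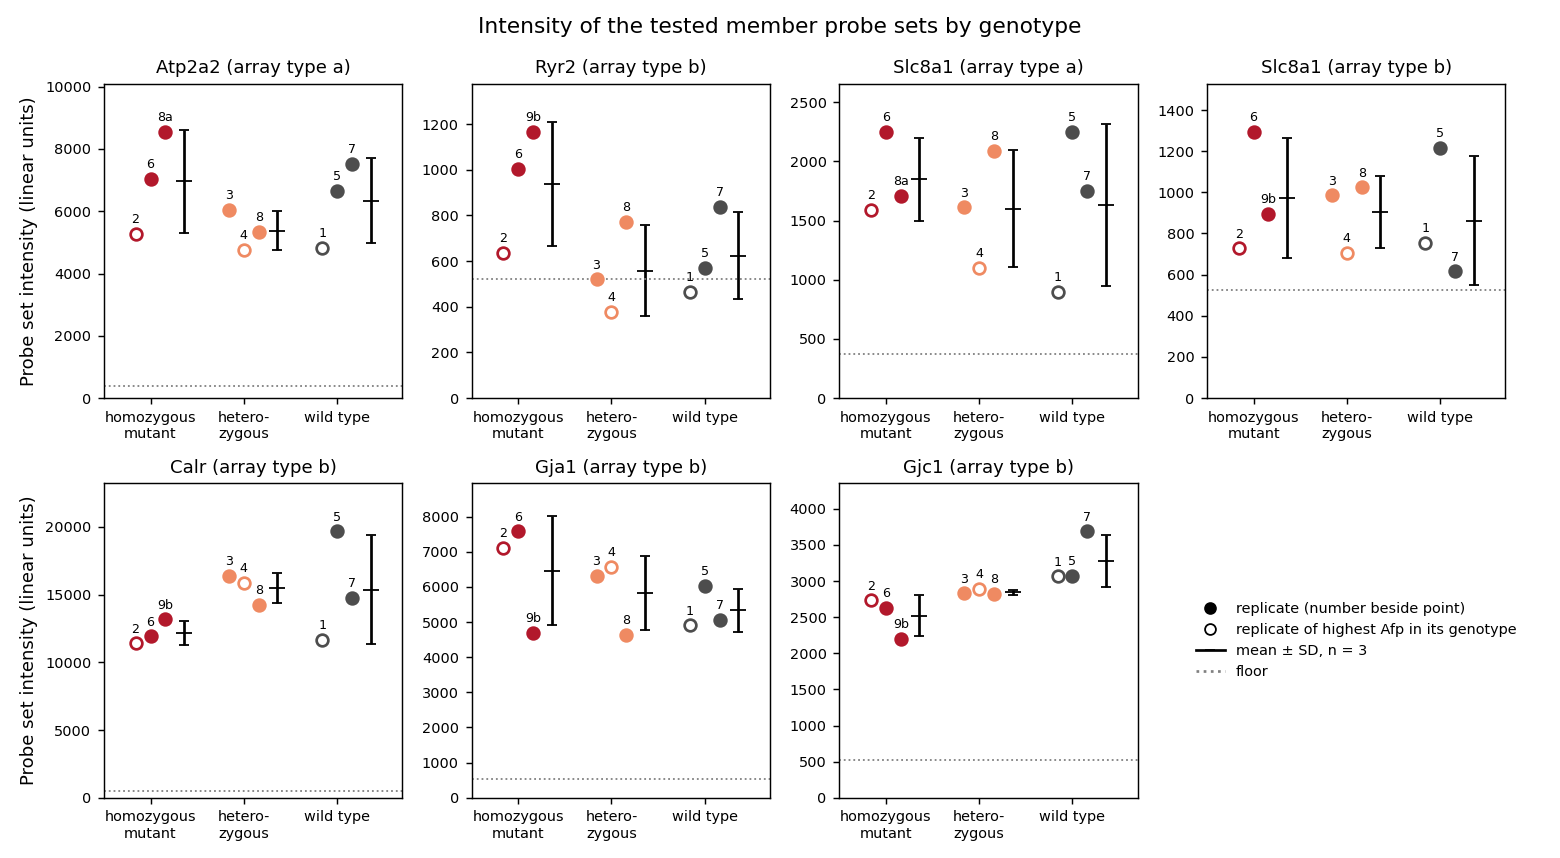
Intensity (linear units) of the 7 tested probe sets by genotype; points are replicates with their label numbers, open points mark the replicate of highest Afp in its genotype, bars show mean ± SD of 3 replicates, and the dotted line is the floor. Gjc1 values lie lowest in the homozygous mutants and highest in wild type without overlap, while Atp2a2, Ryr2 and type a Slc8a1 are lowest in the open point of every genotype (heterozygotes 3 and 4 both lie under the floor for Ryr2).

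Ryr2 encodes the ryanodine receptor of heart muscle, the channel that releases calcium from the sarcoplasmic reticulum. Its intensity was 636.4, 1003.3 and 1167.2 in homozygous mutants 2, 6 and 9b, against 519.8, 378.4 and 771.9 in heterozygotes 3, 4 and 8 and 465.2, 571.3 and 836.2 in wild types 1, 5 and 7. All 3 mutants exceeded the floor, as did 1 of 3 heterozygotes and 2 of 3 wild types, and the values of the genotypes overlapped. The log2 fold change was 0.53 in homozygous mutants over wild type (95% interval -0.09 to 1.14, adjusted p = 0.523) and 0.61 over heterozygotes (-0.01 to 1.22, adjusted p = 0.328). These were the largest differences among the 7 probe sets, and values set to the floor make them understate any difference. Between heterozygotes and wild type it was -0.08 (-0.70 to 0.54, adjusted p = 1). Without array 9b, which had the highest value and the raised actin ratio, the fold change was 0.34 over wild type and 0.42 over heterozygotes.

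The stretch around the Ryr2 start is shown because this gene had the largest difference. It covers 250 bases before and 50 after the annotated start, from RefSeq on GRCm38.p6 at chr13:12106896-12107195 on the minus strand, written 5′ to 3′. Capitals would mark matches to 3 motifs: TNAAGTG (NKE, the element bound by Nkx2-5), ERSE (CCAAT, any 9 bases and CCACG, an element of the endoplasmic reticulum stress response) and TGANTCA (AP-1). Both strands were searched, and this window holds none of them.
Ryr2 promoter: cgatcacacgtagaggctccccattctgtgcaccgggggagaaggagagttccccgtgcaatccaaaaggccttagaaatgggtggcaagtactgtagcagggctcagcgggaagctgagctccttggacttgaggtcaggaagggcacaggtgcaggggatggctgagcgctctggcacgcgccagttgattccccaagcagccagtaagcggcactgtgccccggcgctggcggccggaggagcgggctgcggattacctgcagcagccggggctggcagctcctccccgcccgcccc

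Atp2a2 encodes the pump that returns calcium to the sarcoplasmic reticulum, and the same gene also gives an isoform of the endoplasmic reticulum that most cells use. Its intensity was 5273.4, 7051.3 and 8558.2 in homozygous mutants 2, 6 and 8a, against 6040.1, 4770.2 and 5323.5 in heterozygotes 3, 4 and 8 and 4832.0, 6655.9 and 7509.6 in wild types 1, 5 and 7. The genotypes overlapped, with array 8a the highest and heterozygous 4 the lowest of all. The fitted log2 fold change was 0.13 in homozygous mutants over wild type (95% interval -0.33 to 0.59, adjusted p = 0.887), and without array 8a it was -0.030. It was 0.35 over heterozygotes (-0.11 to 0.81, adjusted p = 0.440), or 0.19 without array 8a, and -0.22 for heterozygotes over wild type (-0.68 to 0.24, adjusted p = 1). The interval against wild type therefore leaves room for a 1.51-fold higher or a 0.797-fold level in the mutants.

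Casq2, a calcium-binding protein inside the sarcoplasmic reticulum of heart muscle, was not measurable at its only probe set. Its intensity ran from -73.6 to 289.0 over the 9 type a arrays, all under the floor of 375.1. No fold change is given, and the genotypes could not be compared for it.

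Slc8a1 encodes the sodium-calcium exchanger of the heart cell membrane. It was read by 3 probe sets, of which the AA106518 probe set of type a stayed between 4.1 and 213.6, under the floor on every array. The AF004666 probe set of type a had 1591.5, 2249.5 and 1706.8 in homozygous mutants 2, 6 and 8a, against 1611.7, 1098.1 and 2086.7 in heterozygotes 3, 4 and 8 and 899.2, 2252.2 and 1750.9 in wild types 1, 5 and 7. The genotypes overlapped across nearly the whole range, and the spread within genotypes was wide. The SD of log2 levels within genotypes was 0.50, larger than for 86.2% of tested type a probe sets. On the log2 scale the fold change was 0.26 in homozygous mutants over wild type (95% interval -0.50 to 1.03, adjusted p = 0.865), 0.24 over heterozygotes (adjusted p = 0.777) and 0.02 for heterozygotes over wild type (adjusted p = 1). Without wild type 1, the value over wild type was -0.12, and without array 8a it was 0.31.

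The type b probe set of Slc8a1 had 727.2, 1295.4 and 895.7 in homozygous mutants 2, 6 and 9b, against 984.8, 704.1 and 1024.2 in heterozygotes 3, 4 and 8 and 755.2, 1217.0 and 615.2 in wild types 1, 5 and 7. Homozygous mutant 6 and wild type 5 were the highest and heterozygous 4 was low, as on type a. Wild type 7 was the lowest on type b while it stood above the wild-type mean on type a, so the probe sets did not rank the replicates alike. limma's log2 fold change was 0.19 in homozygous mutants over wild type (95% interval -0.52 to 0.90, adjusted p = 0.890), 0.08 over heterozygotes (adjusted p = 0.923) and 0.11 for heterozygotes over wild type (adjusted p = 1). It turned to -0.035 over wild type without homozygous mutant 6 and to -0.021 without wild type 7, and it was 0.23 without array 9b.

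Calr encodes calreticulin, which stores calcium in the endoplasmic reticulum and helps glycoproteins fold. Its bright probe set had 11397.1, 11904.5 and 13165.5 in homozygous mutants 2, 6 and 9b, against 16394.9, 15842.2 and 14211.4 in heterozygotes 3, 4 and 8 and 11666.0, 19665.7 and 14767.2 in wild types 1, 5 and 7. All 3 homozygous mutants lay under all 3 heterozygotes, while wild type 1 fell among the mutants and so the mutants and wild type overlapped. The log2 fold change was -0.31 in homozygous mutants over wild type (95% interval -0.75 to 0.13, adjusted p = 0.624) and -0.35 over heterozygotes (-0.79 to 0.09, adjusted p = 0.423). It was 0.04 for heterozygotes over wild type (-0.40 to 0.48, adjusted p = 1). Without wild type 5, the highest array, the value over wild type was -0.11, without wild type 1 it was -0.49, and without array 9b it was -0.37. The second Calr probe set ran from -309.2 to -9.1 and never exceeded the floor.

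The Calr start window (RefSeq, GRCm38.p6, chr8:84846882-84847181, minus strand) is shown because it holds an ERSE match, in capitals, on the strand opposite to the gene and beginning 162 bases before the start. That motif occurs in 39 of 32851 promoter windows of this length (0.119%).
Calr promoter: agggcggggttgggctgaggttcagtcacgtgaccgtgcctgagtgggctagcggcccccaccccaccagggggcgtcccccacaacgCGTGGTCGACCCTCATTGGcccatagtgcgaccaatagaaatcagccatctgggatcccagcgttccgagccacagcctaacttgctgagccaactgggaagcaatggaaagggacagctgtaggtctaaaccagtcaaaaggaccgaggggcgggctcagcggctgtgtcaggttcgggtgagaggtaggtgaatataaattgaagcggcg

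Gja1 encodes the main connexin of working ventricular muscle in adults and is also made by many other embryonic tissues, neural tube among them. Its intensity was 7114.4, 7580.4 and 4694.7 in homozygous mutants 2, 6 and 9b, against 6316.8, 6559.6 and 4624.1 in heterozygotes 3, 4 and 8 and 4902.5, 6019.3 and 5070.7 in wild types 1, 5 and 7. Homozygous mutants 2 and 6 exceeded every other array, but array 9b lay under all 3 wild types. As a log2 fold change this was 0.25 in homozygous mutants over wild type (95% interval -0.24 to 0.74, adjusted p = 0.744), 0.13 over heterozygotes (-0.36 to 0.62, adjusted p = 0.816) and 0.12 for heterozygotes over wild type (adjusted p = 1). Without array 9b the value was 0.47 over wild type (adjusted p = 0.334, the lowest over all alternatives) and 0.35 over heterozygotes (adjusted p = 0.418).

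The Gja1 start window (RefSeq, GRCm38.p6, chr10:56377050-56377349, plus strand) is shown because it holds an AP-1 match, in capitals, beginning 19 bases before the start. That motif occurs in 7.81% of all promoter windows.
Gja1 promoter: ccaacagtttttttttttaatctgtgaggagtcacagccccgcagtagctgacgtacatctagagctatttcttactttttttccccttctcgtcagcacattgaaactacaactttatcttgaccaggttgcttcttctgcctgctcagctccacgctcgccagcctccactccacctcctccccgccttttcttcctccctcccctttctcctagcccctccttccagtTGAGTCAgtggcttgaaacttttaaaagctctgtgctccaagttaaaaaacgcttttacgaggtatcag
The NKE motif occurs in 11.5% of all windows. Among the 8 windows of the 7 genes with an entry (Cacnb3, Calr, Casq2, Gja1, Pln, Ryr2 and Slc8a1) it occurred in 1, that of Cacnb3, whose expression was not read here. Atp2a2 and Gjc1 were the genes without an entry. A match is a run of letters and not a shown binding site.

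Gjc1 encodes the connexin that couples the earliest heart tube and vessel wall cells and later stays in the conduction tissue. Its intensity was 2731.8, 2626.1 and 2197.0 in homozygous mutants 2, 6 and 9b, against 2829.5, 2886.8 and 2819.8 in heterozygotes 3, 4 and 8 and 3064.3, 3073.3 and 3688.0 in wild types 1, 5 and 7. The 3 genotypes did not overlap at all: every homozygous mutant lay under every heterozygote, and every heterozygote under every wild type. Such a complete order with the homozygous mutants lowest held for 9 of 6935 tested probe sets, or 0.13%. The log2 fold change was -0.38 in homozygous mutants over wild type (95% interval -0.80 to 0.04, adjusted p = 0.500), -0.18 over heterozygotes (-0.60 to 0.24, adjusted p = 0.678) and -0.20 for heterozygotes over wild type (-0.62 to 0.22, adjusted p = 1). In means the level was 2518 ± 283 in homozygous mutants, 2845 ± 36.2 in heterozygotes and 3275 ± 358 in wild type (SD, n = 3 each). Without array 9b the fold change was -0.28 over wild type and -0.087 over heterozygotes.

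The order in Gjc1 depended on the scaling. After quantile normalization, an alternative added after seeing the data, Gjc1 had 2811, 2636 and 2385 in homozygous mutants 2, 6 and 9b, against 2808, 2847 and 2487 in heterozygotes 3, 4 and 8 and 3231, 3077 and 3612 in wild types 1, 5 and 7. Homozygous mutants and heterozygotes then overlapped, with a log2 fold change of -0.057 between them, while both stayed under all wild types. The SD within genotypes of 0.13 was among the smallest of type b, where 4.59% of tested probe sets had a smaller one. limma moves such small spreads towards that of other probe sets, so its interval is wider than the SDs alone would give.

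**Figure D2:**
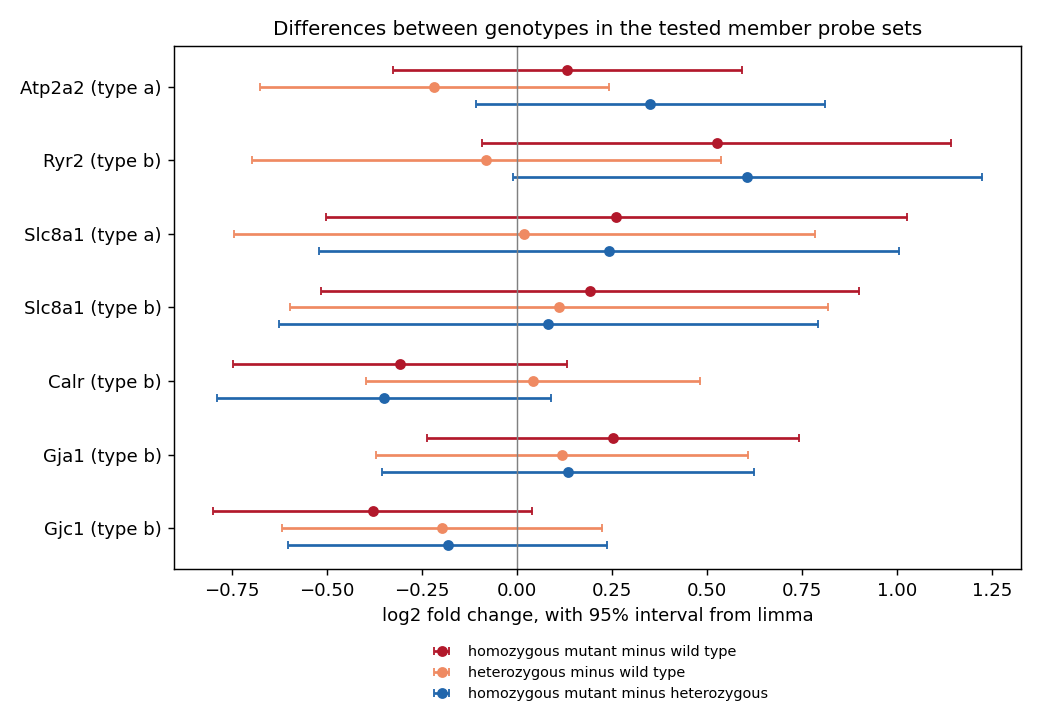
log2 fold changes of the 7 tested probe sets (points) with 95% intervals from limma (bars) for the 3 comparisons, each with the first-named genotype on top. Every interval includes 0; Ryr2 lies farthest to the right and Gjc1 farthest to the left for homozygous mutant minus wild type, at 0.53 and -0.38.

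Replicates of one genotype differed in ways that several calcium handling genes shared. The replicate of highest Afp was the lowest of its genotype in all 3 genotypes for Atp2a2, Ryr2 and the type a probe set of Slc8a1, which is 3 of the 7 probe sets, against 4.96% of all tested probe sets. For Ryr2 this order is that of the deposited intensities, since heterozygotes 3 and 4 were both under the floor. In 0 of the 7 was that replicate the highest in all 3 genotypes, against 5.05%. The same replicates also had the lowest sarcomere level of their genotype on both array types. On type a the mean log2 level of 7 sarcomere genes, relative to the wild-type mean, was -0.79, -0.10 and 0.60 in homozygous mutants 2, 6 and 8a, -0.27, -0.67 and 0.32 in heterozygotes 3, 4 and 8, and -0.35, 0.02 and 0.33 in wild types 1, 5 and 7. On type b, over 5 sarcomere genes, it was -0.76, -0.15 and 1.01 in homozygous mutants 2, 6 and 9b, -0.36, -0.73 and -0.13 in heterozygotes, and -0.25, 0.06 and 0.19 in wild types. The replicate of highest Afp was the lowest in 2 of 3 genotypes for Calr and type b Slc8a1, and in 1 of 3 for Gja1 and Gjc1. Whether the amount of heart in the tissue piece had a part in these levels was not tested.

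**Figure D3:**
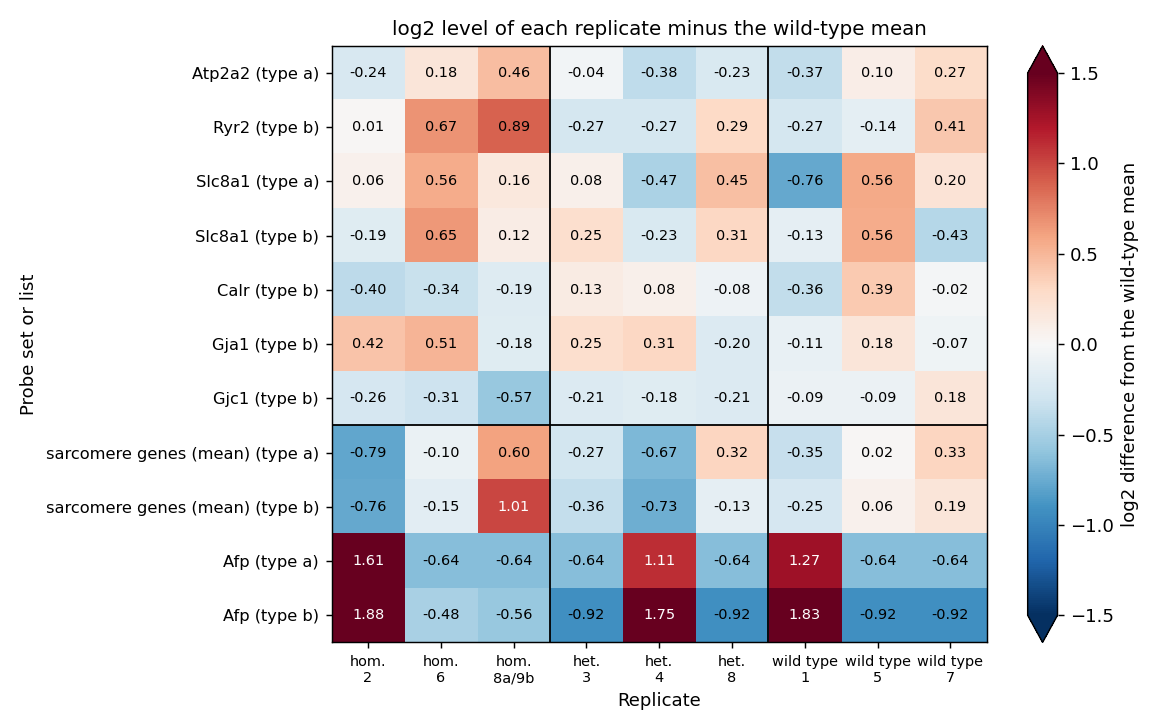
log2 level of each replicate (columns) minus the wild-type mean, for the 7 tested probe sets, the mean of the sarcomere genes and Afp (rows), with red above and blue below wild type. Homozygous mutant 2, heterozygous 4 and wild type 1 combine high Afp with low sarcomere genes; Ryr2 is highest on array 9b (0.89), where the sarcomere mean is also highest (1.01).

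Within the replicates of high Afp, 1 against 1, Ryr2 was higher in the homozygous mutant than in wild type by at least 0.28 on the log2 scale, since wild type 1 was under the floor. Among the other replicates, 2 against 2, it was higher by 0.65. Gjc1 was lower in both, with differences of -0.17 and -0.49. Atp2a2 differed by 0.13 and 0.14. For type a Slc8a1 the values were 0.82 and -0.019, for type b Slc8a1 -0.055 and 0.32, for Gja1 0.54 and 0.11 and for Calr -0.034 and -0.44. With the Afp level as a covariate in the fit none of the 7 passed.

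Each gene was also set against the sarcomere genes of the same array. The difference in log2 level between homozygous mutants and wild type was then 0.49 for Ryr2, 0.23 for Atp2a2, 0.36 and 0.16 for type a and type b Slc8a1, 0.22 for Gja1, -0.34 for Calr and -0.41 for Gjc1. Without arrays 8a and 9b, where the sarcomere level was highest, Calr and Gjc1 turned direction, to 0.091 and 0.17, and Gja1 had 0.93. Ryr2 then had 0.80, Atp2a2 0.41 and type a and type b Slc8a1 0.76 and 0.69. In a two-sided exact permutation test the p-values ran from 0.3 to 0.8, and adjusted over the 7 tests all were 0.8; with 3 against 3 the smallest possible p is 0.1. Homozygous mutants and wild type overlapped in each. Over the 9 arrays, Ryr2 was the only 1 of the 7 probe sets to vary less relative to the sarcomere genes (SD 0.37) than on its own (SD 0.44). The SD was nearly alike for type a Slc8a1, 0.457 against 0.453, and for Atp2a2, 0.316 against 0.298. It was larger relative to the sarcomere genes for type b Slc8a1 with 0.59 against 0.37, Gjc1 with 0.62 against 0.20, Gja1 with 0.73 against 0.27 and Calr with 0.57 against 0.26.

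Other genes of the same processes were examined through 4 lists. Of 63 further genes of calcium transport and storage 28 were annotated and 15 tested, and 0 passed in any comparison. Their median log2 fold change in homozygous mutants over wild type was -0.10, with 5 positive and 10 negative. Asph, whose products include junctin of the calcium release complex, had 1357 ± 54.9 in homozygous mutants and 816.5 ± 128 in wild type (log2 fold change 0.74, adjusted p = 0.260). Prkaca, the catalytic subunit of protein kinase A, had 3525 ± 454 and 4827 ± 600 in the same order (-0.45, adjusted p = 0.280), and Ryr3, another ryanodine receptor, had 1451 ± 296 and 1239 ± 377 (0.26, adjusted p = 0.870).

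Of 18 endoplasmic reticulum chaperones and calcium binders beside Calr, 11 were tested and 0 passed in any comparison, with a median of -0.06 in homozygous mutants over wild type. Dnajb11, a co-chaperone of the endoplasmic reticulum, had 1323 ± 313 in homozygous mutants and 2558 ± 699 in wild type (-0.94, adjusted p = 0.139). Rcn2, a calcium-binding protein, had 2294 ± 606 and 3267 ± 374 in the same order (-0.54, adjusted p = 0.346). P4hb, a protein disulfide isomerase, had 9254 ± 1318 and 6381 ± 684 (0.53, adjusted p = 0.357). Hspa5, the major chaperone of that compartment, had -0.11 at its brighter probe set (adjusted p = 0.913) and 0.05 at the other (adjusted p = 0.948).

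Among 14 tested genes of gap junctions and the intercalated disc, 0 passed in any comparison and the median was -0.02 in homozygous mutants over wild type. Dsp, desmoplakin of the desmosome, had 3903 ± 213 in homozygous mutants, 1990 ± 1202 in heterozygotes and 2144 ± 820 in wild type. Its log2 fold change was 0.93 over wild type (adjusted p = 0.347), while a fold change of 0.70 was read from a second probe set (adjusted p = 0.299). Pkp2, plakophilin of the desmosome, had 3312 ± 411 in homozygous mutants, 1831 ± 163 in heterozygotes and 2027 ± 488 in wild type, with 0.73 over wild type (adjusted p = 0.179) and 0.85 over heterozygotes (adjusted p = 0.0781). Desmosomes also occur in epithelia, and all 4 tested simple epithelial markers were higher in homozygous mutants than in wild type, with a list median of 1.01. Of these 1 passed, Krt19 (2.38, adjusted p = 0.00141). The part of epithelia in the Dsp and Pkp2 values was not tested. Ctnnb1, beta-catenin, had -0.44 (adjusted p = 0.614). Of the other connexins Gja5, of atrium and conduction tissue, had 526.5 ± 97.7, 653.1 ± 59.8 and 702.5 ± 85.9 in homozygous mutants, heterozygotes and wild type (-0.32 over wild type, adjusted p = 0.523), with 1 of 3 homozygous mutants above the floor. Gja4 had -39.9 ± 389, 593.8 ± 53.5 and 534.8 ± 161 in the same order (-0.18, adjusted p = 0.715). Above the floor were 0 of 3 homozygous mutants and 2 of 3 wild types, so this fold change understates any difference. Gjb1 had -0.12 (adjusted p = 0.934).

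Among ion channels of heart excitation 5 of 16 annotated genes were tested and 0 passed in any comparison. Kcne1, a regulatory subunit of a potassium channel, had 960.8 ± 323 in homozygous mutants, 1070 ± 223 in heterozygotes and 576.4 ± 78.0 in wild type (0.65 for homozygous mutants over wild type, adjusted p = 0.443). Kcnj11 had 0.37 (adjusted p = 0.806) and Kcnj3 -0.16 (adjusted p = 0.881), both subunits of inward rectifier potassium channels. These signals lay near the floor. For Kcne1 and for Kcnj11 2 of 3 wild types exceeded it. For Kcnj3 1 of 3 homozygous mutants, 2 of 3 heterozygotes and 1 of 3 wild types did.

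**Figure D4:**
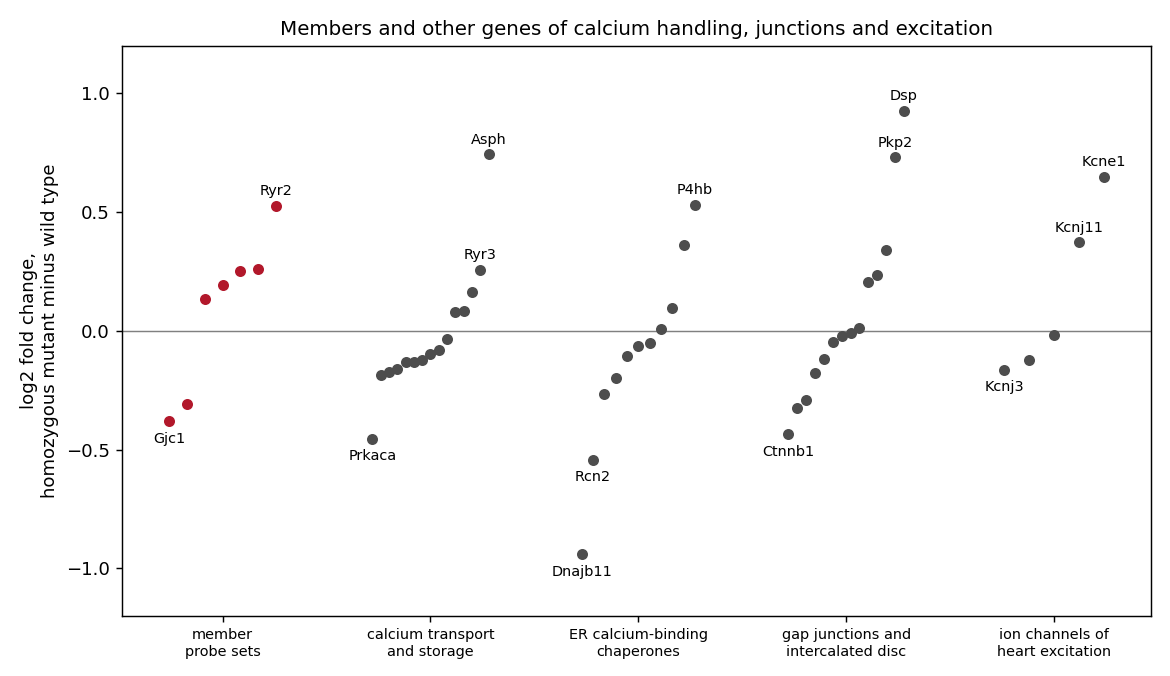
log2 fold change of homozygous mutant minus wild type for the 7 tested probe sets of the 9 listed genes (red) and for the tested genes of 4 further lists (grey), 1 point per probe set or gene, ordered by value within a list. None passed the adjusted threshold; Dsp (0.93) and Dnajb11 (-0.94) lie farthest from 0. The 3 genes of largest size are named in each further list, and Ryr2 and Gjc1 among the members.

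Neural markers, which share the tissue piece, had a median of -0.97 in homozygous mutants over wild type with 8 of 8 negative and 0 passing. Of the 7 member probe sets 2 were lower in that comparison, those of Gjc1 and Calr, and 5 were higher, that of Gja1 among them. Over heterozygotes 1 neural marker passed, Hes5 (-1.26, adjusted p = 0.0335). Between homozygous mutants and wild type the sarcomere list had a median of 0.09 with 7 of 10 positive, from -0.84 for Myl2 to 0.85 for Myl3. The mutants varied widely in both, with 10870 ± 10800 for Myl2 and 16735 ± 10429 for Myl3. Among the mutants, the mean sarcomere level exceeded that of wild type only on arrays 8a (0.60) and 9b (1.01), those of raised actin ratio. It was lower in mutants 2 and 6, with -0.79 and -0.10 on type a and -0.76 and -0.15 on type b. Nppb, a natriuretic peptide gene and also a heart marker, was lower in the mutants, with -1.15 (adjusted p = 0.129). The endothelial list had a median of 0.17 with 5 of 5 positive. The part of these tissues in the values of the calcium handling and gap junction genes was not tested.

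Over the 9 arrays of a type, the named genes whose log2 levels followed each gene most closely were found by Pearson's r, as a description of points that share their tissue and scaling. Ryr2 was closest to Eef2 (0.93), Snhg6 (0.91) and Gpx3 (0.90), and Atp2a2 to Ndufb3 (0.90), Nomo1 (0.87) and Tagln (0.87). Slc8a1 on type a was closest to Nckap1 (0.96), Mdm2 (0.92) and Serbp1 (0.92). Calr was closest to Cdk16 (0.90), the connexin gene Gja4 (0.89), which was under the floor in all 3 homozygous mutants, and Ank1 (0.89). Gja1 was closest to Sct (0.97), Creb1 (0.90) and Zfp623 (0.89), and Gjc1 to Melk (0.89), Notch1 (0.88) and Sfr1 (0.85). Among the members themselves Atp2a2 and Slc8a1 on type a had 0.60. The pairs on type b lay between -0.45 for Gjc1 with Ryr2 and 0.32 for Calr with Gjc1.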

How the data were processed

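Total RNA from 18 samples was read on arrays of 2 types. The files deposited by the authors hold 1 linear intensity for each probe set. Between 13.5% and 18.4% of type a values and between 25.6% and 27.7% of type b values are negative, as after a background subtraction. For the array software and scaling, the sources used here give nothing; the trimmed means of the arrays (2% off each end) differed by at most 0.863% within a type, and the deposited scaling was kept. Heterozygous array 8 of type b lacks 499 values, none of them of a member.

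Control rows (61 per type) were left out. Gene symbols are those of the platform annotation, renewed by gene identifier (5532 of 5541 matched on type a, 1993 of 2001 on type b). On type a 5541 probe sets had 1 symbol, 197 several and 785 none, and on type b 2001, 27 and 4506. The floor was 2 times the noise SD (187.5 and 261.5), estimated from the negative values; values under it were set to it before log2. limma 3.58.1 in R 4.3.3 was fitted per array type on 9 arrays (lmFit, eBayes with an intensity trend, two-sided), with Benjamini-Hochberg adjustment over both types and a threshold of 0.05; the fit was tested on simulated data. The number of arrays limits the precision. Promoter sequences are RefSeq's on GRCm38.p6, matched by symbol.

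The members and lists were chosen with earlier results of these data known. Named beside members were the 3 genes of largest fold change in each list, any that passed, the 3 most similar genes per member, and cell type markers, by the brightest probe set. Gja5, Hspa5, Gjb1 and the intensities of Gja4 were added after their values were seen. Alternatives covered normalization, floor, filter, samples fitted, variance trend, Afp and each replicate left out.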

Additional observations from a re-analysis of the deposited data

How the results depend on the processing

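No member probe set passed in any of 336 refitted values over 16 alternatives (lowest adjusted p = 0.215). Calls over all probe sets moved more. Between homozygous mutants and wild type the 48 calls became 19 with no filter on low signal and 7 with only the compared genotypes fitted, and between homozygous mutants and heterozygotes the 80 became 45 and 40. With 1 numbered replicate left out at a time these counts ran from 14 (without wild type 5) to 46 and from 14 (without heterozygous 3) to 86, and were 55 and 88 without arrays 8a and 9b. Leaving out wild type 7, homozygous mutant 2 or heterozygous 3 put the first at 16, 18 or 27. The second was also 15, 32, 41 and 47 without heterozygous 4, homozygous mutant 2, heterozygous 8 and wild type 5. Between heterozygotes and wild type the count ran from 0 to 1 (without heterozygous 8 or wild type 7). Quantile normalization turned Slc8a1 in heterozygotes over wild type to -0.025 (type a) and -0.073 (type b), and the cause was not tested. Small differences turned sign with 1 numbered replicate left out. In homozygous mutants over wild type the ranges were -0.050 to 0.32 for Atp2a2 (-0.030 without array 8a), -0.12 to 0.54 for type a Slc8a1 and -0.035 to 0.47 for type b Slc8a1. In heterozygotes over wild type they were -0.14 to 0.24 for Calr, -0.27 to 0.12 for Ryr2, -0.36 to 0.30 for type a Slc8a1 and -0.10 to 0.39 for type b Slc8a1. In homozygous mutants over heterozygotes they were -0.025 to 0.23 for Gja1 (0.35 without array 9b), -0.0045 to 0.46 for type a Slc8a1 and -0.14 to 0.27 for type b Slc8a1. Relative to the sarcomere genes the median over members, 0.22, ran from -0.046 (without homozygous mutant 2) to 0.28 and was 0.69 without arrays 8a and 9b. There the ranges were -0.26 to 0.29 for Gja1, -0.16 to 0.41 for type b Slc8a1, -0.69 to -0.18 for Calr and -0.87 to -0.33 for Gjc1. Without arrays 8a and 9b, Calr had 0.091, Gjc1 0.17, Gja1 0.93 and type b Slc8a1 0.69. Gjc1 had 3 genotype pairs without overlap as deposited and 2 after quantile normalization. Against wild type in homozygous mutants, Ryr2, Gja1, Gjc1 and Calr kept their sign under every alternative of the fit.

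No paired analysis was possible because the genotypes share at most 1 replicate number. Casq2, 1 Slc8a1 and 1 Calr probe set lay under the floor, where signal over background allows no comparison.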

Other observations

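Complete separation of the 3 genotypes in either direction held for 12 of 6935 tested probe sets under the deposited scaling and for 11 of 6912 after quantile normalization. The 9 with the homozygous mutants lowest were those of Arpc5l, Bysl, Gjc1, Hes6, Idh1 and Srsf6 and 3 without a symbol, named here after their values were seen. Kcne1 had its largest difference in heterozygotes over wild type (log2 fold change 0.85, adjusted p = 1), with 2 of 3 wild types above the floor. Calm3, a calmodulin gene, had 1599 ± 502 in homozygous mutants, 907.5 ± 236 in heterozygotes and 1672 ± 959 in wild type. Both were chosen after their values were seen.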
